A study of Homo sapiens with 11 samples.

Results

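The gasdermins are a family of pore-forming proteins, and the expression of its 6 human members was examined in HEK293T cells that had been transfected with DFNA5, a member now named GSDME (gasdermin E). The members were chosen by gene symbol alone, as every probe that the platform annotation assigns to GSDME, GSDMD, GSDMA, GSDMB, GSDMC or PJVK (pejvakin, formerly DFNB59). This gave 10 of the 42000 probes on the array. GSDMB had 3 probes, GSDMA and PJVK had 2 each, and GSDME, GSDMD and GSDMC had 1 each.

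HEK293T is an easily transfected human embryonic kidney line. Cells received either mutDFNA5 (6 arrays) or wtDFNA5 (5 arrays) with lipofectamine, and the study's methods call these independent biological replicates. According to the study's text, mutDFNA5 is a cDNA without the exon that is skipped in families with DFNA5 hearing loss and wtDFNA5 is the full-length cDNA. All cultures were therefore given a DFNA5 plasmid on top of the cells' own GSDME gene. The share of cells that took it up is not stated for these arrays. Neither a vector control nor untransfected cultures were analysed here. The labels give 6 h after transfection in the text on harvest and 12 h in that on extraction for the microarray experiment, and the methods name the later time for the arrays too. The mutant samples carry KO in their titles, but their characteristics name a mutant DFNA5 construct.

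As background, a gasdermin consists of an N-terminal domain that can form pores in membranes and a C-terminal domain that holds it inactive. A protease cuts the linker between both domains, the freed N-terminal part assembles into a pore, and the cell swells and leaks, a lytic form of death called pyroptosis. GSDMD is cut by the inflammatory caspases. Pejvakin is the most distant member of the family and lacks the long C-terminal domain. GSDME and PJVK are both deafness genes, with dominant inheritance for GSDME and recessive inheritance for PJVK.

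Depth on an array is read as signal over background. A probe counted as detected on an array when its detection p-value, the share of negative control probes at least as bright, was under 0.01. Between 14372 and 15443 probes were detected on the mutDFNA5 arrays and between 14029 and 15407 on the wtDFNA5 arrays. After quantile normalization the lowest signal that counted as detected ran from 7.36 to 7.46 on the log2 scale, depending on the array. A probe was tested when at least 5 of the 11 arrays detected it, which left 14542 probes. Of these, 569 were higher and 627 were lower in mutDFNA5 (limma, adjusted p under 0.05), and with median scaling in place of quantile normalization 376 were higher and 72 lower. Of the 7 markers listed for this line, 6 (the neurofilament genes NEFL, NEFM and INA, with VIM, KRT18 and CDH2) were detected on all 11 arrays, and KRT8 on none. All 3 hair cell markers (POU4F3, OTOF and MYO7A) were undetected on every array. Among markers of other cell types, CD14 (immune), COL1A1 and DCN (fibroblast) and SLC34A1 (mature kidney tubule) were detected on some arrays. The other listed markers of these 3 cell types with a probe were detected on none.

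Only GSDME was detected on every array, and the other members were weakly expressed or not detected. The GSDME signal was itself modest, with means of 8.05 in mutDFNA5 and 8.02 in wtDFNA5, not far above the lowest detected signals. Of 110 readings (10 probes on 11 arrays) 27 were detected, and 11 of these belonged to GSDME. By probe, 1 of 10 was detected on all arrays (GSDME), 5 on some arrays and 4 on none. GSDMD, GSDMC and 1 probe each of GSDMA and PJVK were the undetected ones. Of the 10 probes, 3 passed the filter (GSDME, 1 of 2 GSDMA probes and 1 of 3 GSDMB probes), and GSDMD, GSDMC and PJVK had no probe in the test. None of the 3 tested probes differed between mutDFNA5 and wtDFNA5 (limma, adjusted p under 0.05), against 8.22% of all tested probes (3.91% higher and 4.31% lower), and 0 of 3 had an unadjusted p under 0.05, against 23.1%. With so few probes these counts say nothing about the family as a group, and the results are given probe by probe. In all 10 probes the values of the groups overlapped, whereas 2.36% of all 42000 probes had groups that did not.

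**Figure D1:**
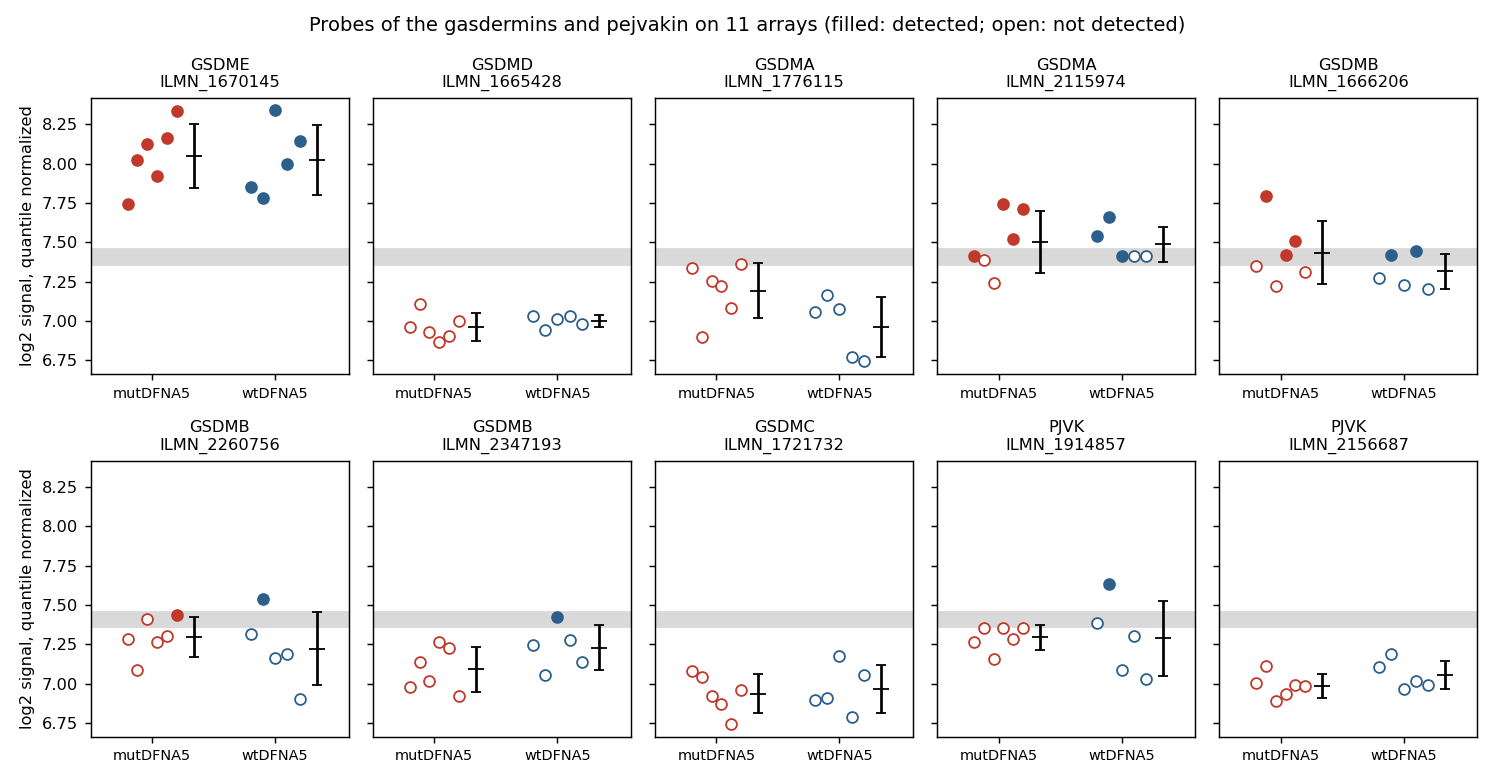
Quantile-normalized log2 signal (y axis) of the 10 probes on the 6 mutDFNA5 and 5 wtDFNA5 arrays, 1 panel per probe. Filled points were detected and open points were not, black bars are the mean ± SD of a group, and the grey band spans the lowest detected signal of the 11 arrays (7.36 to 7.46). Only GSDME lies above the band on every array, and the groups overlap in every panel.

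**Figure D2:**
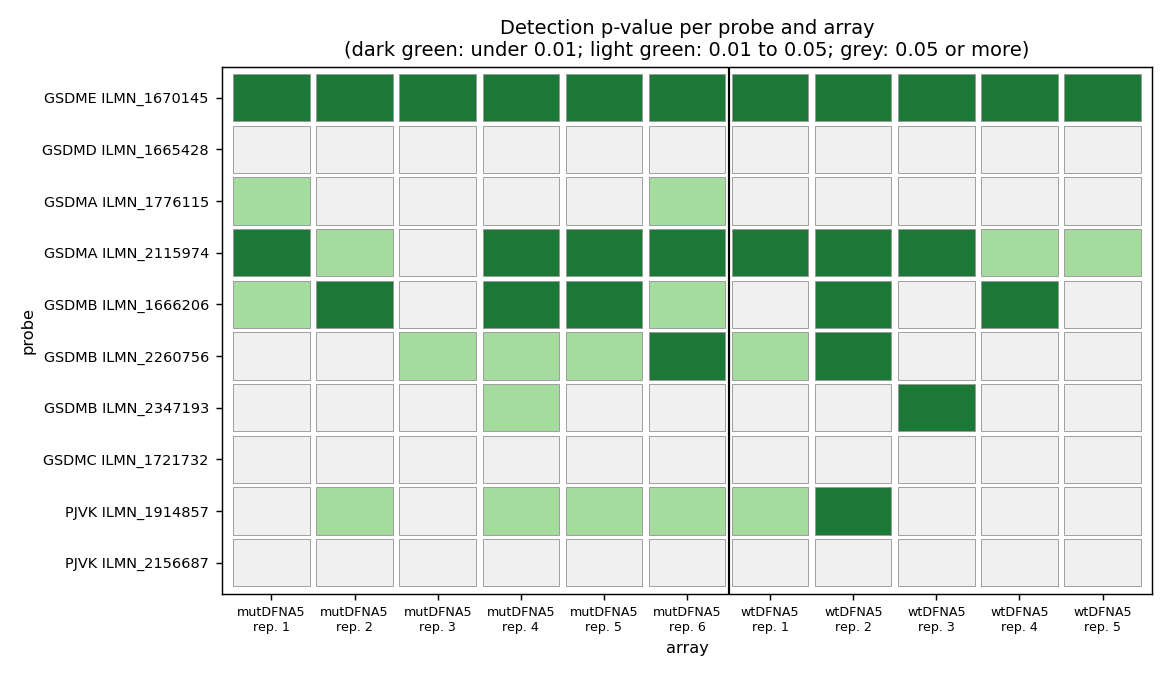
Detection p-value class of each probe (rows) on each array (columns), with mutDFNA5 on the left of the vertical line and wtDFNA5 on the right. GSDME is dark green on all 11 arrays, whereas the rows of GSDMD, GSDMC and PJVK probe ILMN_2156687 are grey throughout.

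GSDME, the gene carried by both constructs, was detected on all 11 arrays with a detection p-value of 0, so that no negative control was as bright. Its probe ILMN_1670145 gave log2 signals of 7.74, 8.02, 8.12, 7.92, 8.16 and 8.33 on mutDFNA5 arrays 1 to 6. The wtDFNA5 arrays 1 to 5 gave 7.85, 7.78, 8.34, 8.001 and 8.14. The highest values, mutDFNA5 replicate 6 and wtDFNA5 replicate 3, came from different groups, and so did the lowest, mutDFNA5 replicate 1 and wtDFNA5 replicate 2. The groups overlapped almost completely, with 1 of 6 mutDFNA5 arrays outside the wtDFNA5 range. GSDME averaged 8.05 ± 0.20 in mutDFNA5 (SD, n = 6) and 8.02 ± 0.22 in wtDFNA5 (SD, n = 5). The difference of 0.03 (SE 0.11) was smaller than the spread between replicates and was not called by limma (adjusted p = 0.908, over all 14542 probes).

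The interval of this difference gives the differences that the arrays leave possible. Its 95% bounds of -0.19 and 0.25 correspond to 0.88-fold and 1.19-fold. These folds are compressed because no background was subtracted from the signals. With normexp background correction the difference was 0.05, with bounds of -0.39 and 0.49 (0.76-fold and 1.40-fold). Differences smaller than these bounds were not detectable with 6 and 5 arrays. The direction itself was not stable. The difference was -0.03 without mutDFNA5 replicate 6 (with or without the replicate number as a block), -0.02 without wtDFNA5 replicate 1 and -0.03 without wtDFNA5 replicate 2.

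The GSDME probe varied between replicates more than most tested probes. Its residual SD within groups was 0.21, larger than that of 92.5% of the 14542 tested probes and of 93.6% of the 12071 probes detected on all 11 arrays. These probes span all signal levels, and probes of similar signal were not compared on their own. The residual SD was 0.16 for the tested GSDMA probe and 0.17 for the tested GSDMB probe, above 70.6% and 72.9% of tested probes. Before normalization the GSDME signals ran from 7.88 (replicate 4) to 8.33 (replicate 6) in mutDFNA5, and from 7.53 (replicate 4) to 8.48 (replicate 3) in wtDFNA5.

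What the GSDME probe reads of the transfected constructs cannot be settled here. The annotation ties the probe to the RefSeq transcript NM_004403, 1 of 4 curated GSDME transcripts in the RefSeq table, and gives neither its sequence nor its place in that transcript. A probe within the coding exons that both cDNAs keep would read plasmid and endogenous transcripts together. A probe within the exon missing from mutDFNA5 would read the endogenous transcript and wtDFNA5, and a probe outside the cloned cDNA would read the endogenous transcript alone. The near-equal signals therefore check neither the labels nor the dose of plasmid, and the absence of untransfected cultures leaves no baseline for the endogenous gene. The other 9 probes are annotated to other genes, and whether they share sequence with the cDNAs was not tested.

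GSDMD, the main executioner of inflammatory pyroptosis in macrophages, was below detection throughout. The log2 signals of its probe ILMN_1665428 had a lowest value of 6.86, a median of 6.94 and a highest value of 7.11 in mutDFNA5, against 7.03, 6.94, 7.01, 7.03 and 6.98 on wtDFNA5 arrays 1 to 5. Its detection p-values lay between 0.222 and 0.722 in mutDFNA5 and between 0.356 and 0.569 in wtDFNA5, which is in the middle of the negative controls. GSDMC, which is studied mainly in skin and gut epithelium and in tumors, was undetected as well. Its probe ILMN_1721732 had log2 signals from 6.74 to 7.08 in mutDFNA5 and from 6.79 to 7.17 in wtDFNA5, and the smallest detection p-value on any array was 0.127. Differences between signals at background are not changes of a transcript, and in a fit of all 42000 probes without a filter they were -0.04 for GSDMD (95% interval -0.19 to 0.11, adjusted p = 0.913) and -0.03 for GSDMC (95% interval -0.20 to 0.14, adjusted p = 0.950). At this signal neither a low level nor a change in either transcript was detectable.

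GSDMA, a gasdermin of skin keratinocytes, was read differently by its 2 probes, although both are annotated to the same transcript, NM_178171. Probe ILMN_2115974 was detected on 4 of 6 mutDFNA5 and 3 of 5 wtDFNA5 arrays. Its log2 signals were 7.42, 7.38, 7.24, 7.74, 7.52 and 7.71 on mutDFNA5 arrays 1 to 6, against 7.54, 7.66, 7.41, 7.41 and 7.41 on wtDFNA5 arrays 1 to 5. The mutDFNA5 values reached both above and below the wtDFNA5 range, with 2 arrays on either side. The means were 7.50 ± 0.20 in mutDFNA5 (SD, n = 6) and 7.49 ± 0.11 in wtDFNA5 (SD, n = 5), a difference of 0.02 with a 95% interval of -0.17 to 0.20 (limma, adjusted p = 0.939). With normexp background correction the interval widened to -0.47 to 0.51.

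The second GSDMA probe, ILMN_1776115, was not detected on any array. Its log2 signals were 7.34, 6.90, 7.25, 7.22, 7.08 and 7.36 on mutDFNA5 arrays 1 to 6, against 7.06, 7.162, 7.07, 6.77 and 6.74 on wtDFNA5 arrays 1 to 5. Of the 6 mutDFNA5 arrays 4 lay above all wtDFNA5 arrays, and 2 had detection p-values of 0.0303 and 0.026, short of the threshold. Its difference of 0.23 was the widest among the 10 probes, but in the fit without a filter it was not called (limma, 95% interval 0.04 to 0.42, unadjusted p = 0.0192, adjusted p = 0.271). It was the only one of the 10 probes with an unadjusted p under 0.05 in that fit, where 11.9% of all 42000 probes had one and 1.91% passed at adjusted p under 0.05. Because the probe stayed at background in both groups no change in GSDMA can be read from it, and the difference of the other GSDMA probe was 0.02.

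GSDMB, a gasdermin of airway and gut epithelium that is cut by granzyme A from killer lymphocytes, had 3 probes near the detection limit. ILMN_1666206, annotated to NM_001042471, was detected on 3 of 6 mutDFNA5 and 2 of 5 wtDFNA5 arrays. Its log2 signals were 7.35, 7.79, 7.22, 7.42, 7.51 and 7.31 on mutDFNA5 arrays 1 to 6, against 7.27, 7.42, 7.23, 7.45 and 7.20 on wtDFNA5 arrays 1 to 5. Replicate 2 was the highest mutDFNA5 array, and the remaining values of both groups overlapped except for replicate 5. The means were 7.43 ± 0.20 in mutDFNA5 (SD, n = 6) and 7.31 ± 0.11 in wtDFNA5 (SD, n = 5). The difference of 0.12 had a 95% interval of -0.07 to 0.31 (limma, adjusted p = 0.465). Without mutDFNA5 replicate 2 it was 0.05 (adjusted p = 0.791), and with normexp background correction it was 0.32 with an interval of -0.19 to 0.82 (adjusted p = 0.469).

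The other GSDMB probes are both annotated to NM_018530 and did not pass the filter. ILMN_2260756 was detected on mutDFNA5 replicate 6 and wtDFNA5 replicate 2 only. Its log2 signals ranged from 7.08 to 7.44 with a median of 7.29 in mutDFNA5, against 7.32, 7.54, 7.17, 7.19 and 6.90 on wtDFNA5 arrays 1 to 5. ILMN_2347193 was detected on wtDFNA5 replicate 3 only, with log2 signals from 6.92 to 7.27 and a median of 7.08 in mutDFNA5, against 7.25, 7.05, 7.43, 7.28 and 7.14 in wtDFNA5. The 3 probes did not share a direction. Their differences were 0.12, 0.07 and -0.14, and none was called with or without a filter (adjusted p = 0.677, 0.845 and 0.570 without it). After each group's mean was subtracted, Pearson's r between pairs of these probes over the 11 arrays was -0.18, 0.24 and -0.36, given as a description. The probes thus gave no common reading of GSDMB, and RefSeq holds 10 curated transcripts for this gene, of which the annotation assigns 2 to the probes.

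PJVK, which is needed in hair cells and auditory neurons and is linked to the turnover of peroxisomes, was detected on a single array. Both of its probes are annotated to NM_001042702. ILMN_1914857 had log2 signals from 7.15 to 7.36 with a median of 7.32 in mutDFNA5, where it was never detected. The wtDFNA5 arrays 1 to 5 gave 7.38, 7.63, 7.09, 7.30 and 7.03, and only replicate 2, the highest, was detected. The group means of 7.29 ± 0.08 in mutDFNA5 (SD, n = 6) and 7.29 ± 0.24 in wtDFNA5 (SD, n = 5) differed by 0.01, and the wtDFNA5 values spread on both sides of the mutDFNA5 values. No bound on a fold could be set, because the wtDFNA5 mean lay below the lowest detected signals of the mutDFNA5 arrays.

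With a looser detection limit of 0.05, ILMN_1914857 was seen on 4 of 6 mutDFNA5 and 2 of 5 wtDFNA5 arrays and entered the fit. The difference was then 0.01 with a 95% interval of -0.19 to 0.20 (limma, adjusted p = 0.978). ILMN_2156687, the second PJVK probe, was undetected everywhere, with a smallest detection p-value of 0.103. Its log2 signals ranged from 6.89 to 7.11 in mutDFNA5 and from 6.97 to 7.18 in wtDFNA5. In the fit without a filter its difference was -0.07 (95% interval -0.22 to 0.09, adjusted p = 0.816). The 2 PJVK probes followed each other across arrays (Pearson's r 0.80, Spearman's rho 0.76 after subtraction of the group means, 11 arrays), and these are within-array values that also share each array's background.

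Single arrays contributed unevenly to these detections. Besides GSDME, 4 probes of the family were detected on wtDFNA5 replicate 2, whereas 0 to 2 were detected on each of the other 10 arrays. That array also had the highest number of detected probes among the wtDFNA5 arrays (15407). However, mutDFNA5 replicate 5 detected more probes (15443), with 2 of the family besides GSDME. The part of these numbers in the detections of the family was not tested. Across the 3 tested probes there was little common movement after the group means were subtracted, with Pearson's r of -0.13 for GSDME and GSDMA, -0.26 for GSDME and GSDMB, and 0.05 for GSDMA and GSDMB (11 arrays each).

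**Figure D3:**
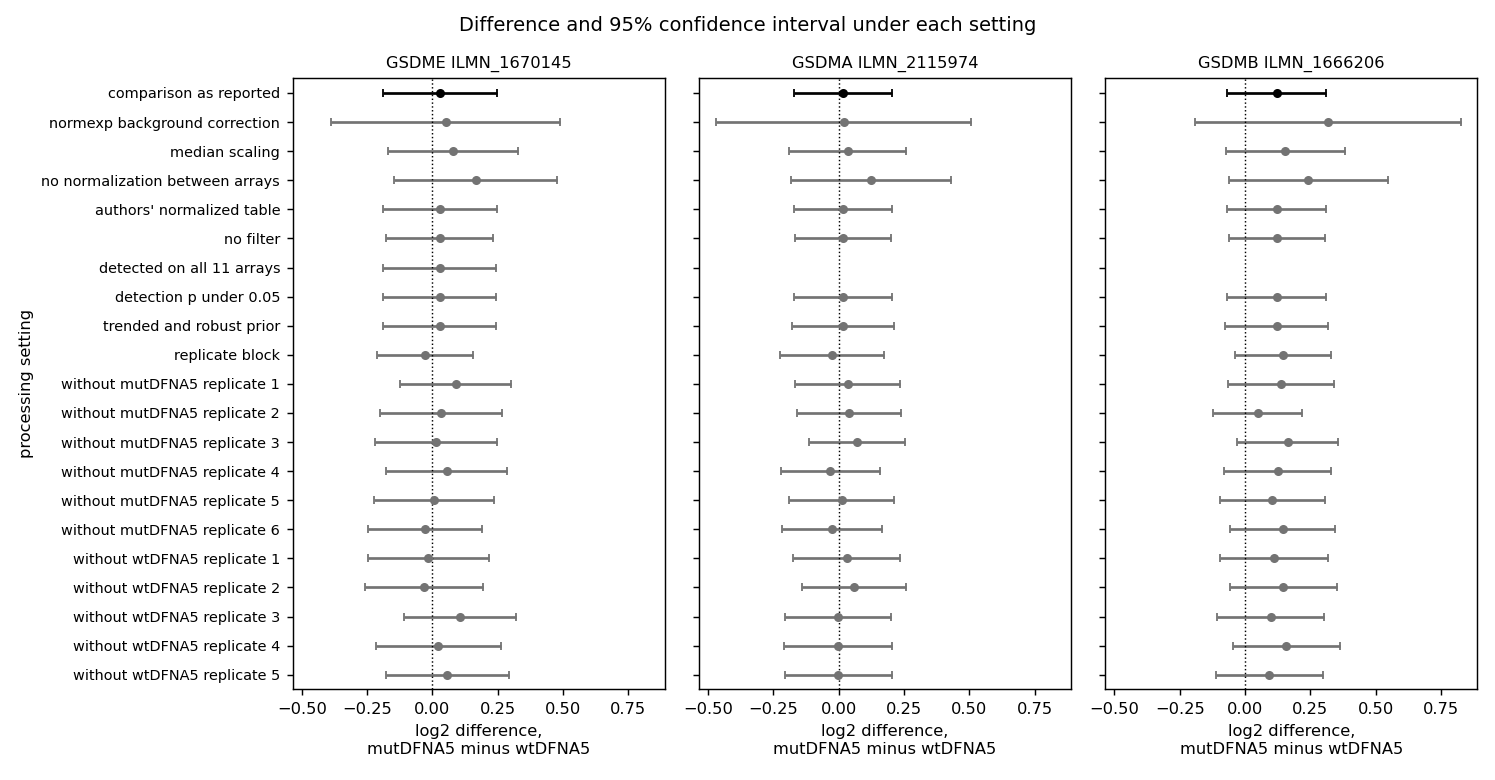
Log2 difference between mutDFNA5 and wtDFNA5 (points, x axis) with its 95% confidence interval (bars) for the 3 tested probes under each processing setting (rows). Every interval includes 0, and the intervals are widest with normexp background correction. For GSDMA and GSDMB the row for detection on all 11 arrays is empty, since neither probe passed that filter.

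The transcripts most alike in pattern were found by Pearson's correlation over the 11 arrays after the mean of each group was subtracted, among 12483 probes of other named genes. These are the highest of many values from few arrays and serve as a description. GSDME was followed most closely by BMP2K (r 0.87), NCK2 (0.86) and SARS2 (0.85). GSDMA (ILMN_2115974) was followed by POLR2I (0.89), ZBTB2 (0.89) and FSTL1 (0.89), and GSDMB (ILMN_1666206) by HEATR5B (0.95), ZNF551 (0.90) and SLC39A13 (0.90). No gene was shared between the 3 sets.

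Of 10 listed proteases that cut gasdermins 8 had a probe, and none of these was measurable. Proteases outside the list were not examined, so this does not cover every protease that cuts a gasdermin. Those with a probe were CASP1, CASP4 and CASP5, which cut GSDMD, CASP8, the granzymes GZMA and GZMB, and the neutrophil proteases ELANE and CTSG. None of these 8 genes passed the filter. CASP8 was detected on at most 2 arrays with any of its 4 probes, CASP1 on at most 1, and the other 6 on none.

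Inflammasome genes, which encode the sensors and adaptors that activate caspase-1 and the cytokines released through gasdermin pores, were mostly undetected as well. Of 16 genes with a probe 5 were tested (NAIP, CARD8, NEK7, DPP8 and IL18), and 0 were called, against 8.97% of the 9653 genes tested (4.05% higher and 4.92% lower), each gene being represented by its brightest probe. Their log2 differences ran from 0.11 to 0.18, with a median of 0.14 against -0.005 over all genes. NEK7, a kinase that binds the NLRP3 sensor, had the smallest p. It averaged 8.71 ± 0.20 in mutDFNA5 (SD, n = 6) and 8.52 ± 0.07 in wtDFNA5 (SD, n = 5), a difference of 0.18 (limma, adjusted p = 0.226). Its second probe gave -0.06 (adjusted p = 0.745). The central components NLRP3 and PYCARD were each detected on at most 1 array, and AIM2, NLRC4 and IL1B on none.

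Among genes of membrane rupture and repair, 1 of 18 tested genes rose and 1 fell (limma, adjusted p under 0.05; 11.1% called, against 8.97% of all genes), and the median difference was -0.02. ANXA1 (annexin A1), a calcium-dependent membrane-binding protein with roles in repair and in anti-inflammatory signalling, had log2 signals between 9.18 and 9.58 in mutDFNA5 with a median of 9.41, against 8.29 to 8.48 with a median of 8.32 in wtDFNA5. All 6 mutDFNA5 arrays lay above all wtDFNA5 arrays, and 5.81% of all tested probes had groups that did not overlap. The means of 9.40 ± 0.15 in mutDFNA5 (SD, n = 6) and 8.38 ± 0.09 in wtDFNA5 (SD, n = 5) differed by 1.02, or 2.03-fold (adjusted p = 1.08e-08), and the call held in all 21 alternative settings.

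NINJ1 (ninjurin 1), which tears the plasma membrane in the last step of lytic death, was lower in mutDFNA5. Its log2 signals were 8.94 to 9.20 with a median of 9.003 in mutDFNA5, against 9.27 to 9.53 with a median of 9.33 in wtDFNA5, and the groups did not overlap, as for 5.81% of all tested probes. The difference was -0.35 (SE 0.08, adjusted p = 0.00582). NINJ1 had a single tested probe, and its call was lost with median scaling (-0.26, adjusted p = 0.210) and without normalization between arrays (-0.17, adjusted p = 0.583). In these settings the median of all genes moved to 0.07 and 0.16, against -0.005 with quantile normalization, and relative to it NINJ1 differed by -0.33 in both, against -0.35. The remaining 16 genes, which include 10 CHMP genes that encode ESCRT-III subunits, the ATPases VPS4A and VPS4B, PDCD6, TSG101, ANXA2 and ANXA6, were not called.

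**Figure D4:**
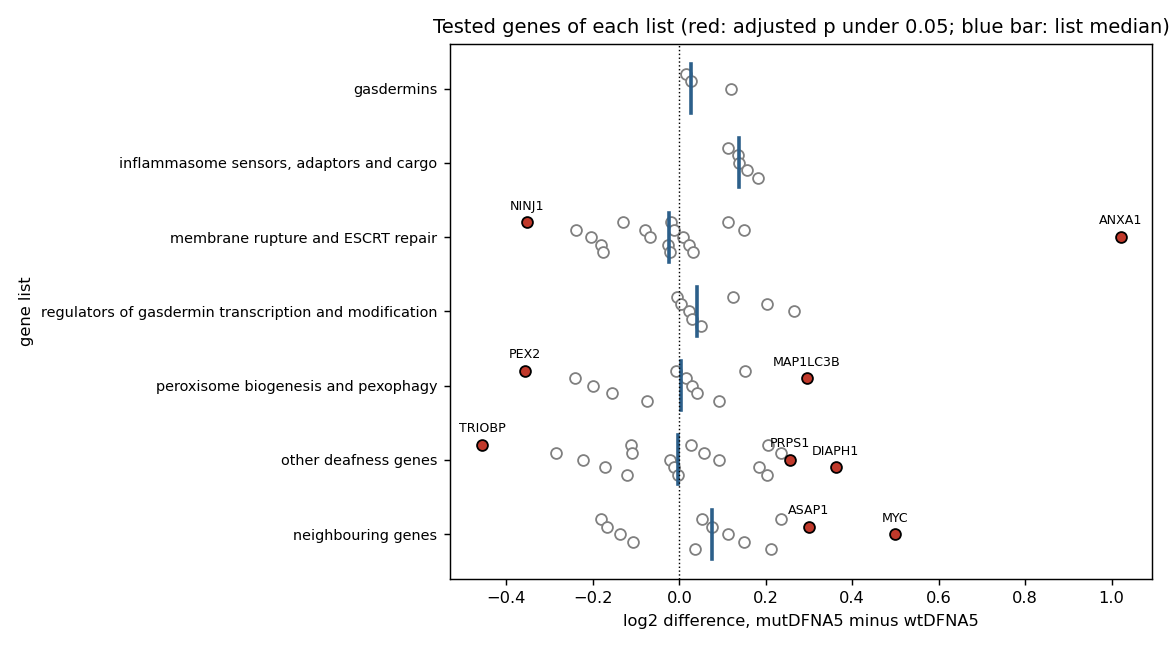
Log2 difference between mutDFNA5 and wtDFNA5 (x axis) of each tested gene in 6 gene lists and of the 3 tested gasdermin probes (rows). Red points had an adjusted p under 0.05 and are named, open points did not, and blue bars mark the median of a list. ANXA1 at 1.02 stands far to the right of all other genes shown, and the gasdermin probes lie between 0.02 and 0.12.

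None of the 8 tested regulators of gasdermin transcription or modification was called. The tested genes were IRF1, the DNA methyltransferases DNMT1 and DNMT3B, the palmitoyltransferases ZDHHC5 and ZDHHC9, SIRT1, STUB1 and SYVN1, with a median difference of 0.04. ZDHHC5 had the smallest p, with 9.16 ± 0.11 in mutDFNA5 (SD, n = 6), 8.96 ± 0.08 in wtDFNA5 (SD, n = 5) and a difference of 0.20 (limma, adjusted p = 0.105). IRF2, an activator of GSDMD transcription, was detected on at most 1 array.

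Peroxisome genes were examined because of pejvakin. Of 12 tested genes 1 rose and 1 fell (16.7% called, against 8.97% of all genes), with a median difference of 0.004. PEX2, a ubiquitin ligase subunit of the peroxisomal import machinery, averaged 9.44 ± 0.16 in mutDFNA5 (SD, n = 6) and 9.80 ± 0.13 in wtDFNA5 (SD, n = 5). Its difference was -0.36 (limma, adjusted p = 0.0123), and all 6 mutDFNA5 arrays lay below all wtDFNA5 arrays. The groups did not overlap in 5.81% of all tested probes. The PEX2 call was lost with median scaling (-0.26, adjusted p = 0.268) and without normalization between arrays (-0.17, adjusted p = 0.586). Relative to the median of all genes PEX2 differed by -0.33 in both settings, against -0.35 with quantile normalization. MAP1LC3B, the LC3 protein of autophagosomes, averaged 11.20 ± 0.17 in mutDFNA5 (SD, n = 6) and 10.90 ± 0.11 in wtDFNA5 (SD, n = 5), a difference of 0.29 (adjusted p = 0.0351). That call was lost when any 1 of 7 arrays was left out (mutDFNA5 replicates 1, 2, 5 and 6 and wtDFNA5 replicates 1, 4 and 5, adjusted p up to 0.0867) and with normexp background correction (adjusted p = 0.0823), median scaling (0.0861), no normalization (0.0910), no filter (0.0700) and the replicate block (0.0959).

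GSDME and PJVK share their disease with many genes of diverse function, and 58 other deafness genes were listed. Of these 19 were tested, 2 rose and 1 fell (15.8% called, against 8.97% of all genes), with a median difference of -0.004. The hair cell genes OTOF, PCDH15, TMC1, TMIE and MYO7A were undetected on every array. They do not stand for the whole list, since MYO6, WHRN and CIB2 were detected on all 11 arrays. CDH23 was detected on at most 4 arrays, and ESPN and LOXHD1 on at most 1. DIAPH1, an actin-nucleating formin, averaged 10.76 ± 0.11 in mutDFNA5 (SD, n = 6) and 10.40 ± 0.20 in wtDFNA5 (SD, n = 5), a difference of 0.36 (limma, adjusted p = 0.0136), and its second probe rose by 0.49 (adjusted p = 0.0295). With the replicate block the first probe gave an adjusted p of 0.0518.

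PRPS1, an enzyme of nucleotide synthesis, rose by 0.26 (adjusted p = 0.0395) with log2 means of 12.80 ± 0.10 in mutDFNA5 (SD, n = 6) and 12.54 ± 0.10 in wtDFNA5 (SD, n = 5). Its call was lost when any 1 of 8 arrays was left out (mutDFNA5 replicates 1, 2, 5 and 6 and wtDFNA5 replicates 1 to 4, adjusted p up to 0.0992), and with normexp background correction (0.0728), median scaling (0.0792), no normalization (0.114), no filter (0.0936) and the replicate block (0.0675). TRIOBP, an actin-bundling protein of hair cell rootlets, fell by 0.46 with its brightest probe (adjusted p = 0.00324). The means were 8.44 ± 0.19 in mutDFNA5 (SD, n = 6) and 8.90 ± 0.13 in wtDFNA5 (SD, n = 5), while its other 3 probes gave -0.05, -0.03 and 0.05 and were not called. The brightest probe was not called with median scaling (-0.37, adjusted p = 0.0689) or without normalization (-0.28, adjusted p = 0.352), and neither was the mean of all 4 probes (-0.12, adjusted p = 0.228). Relative to the median of all genes, the brightest probe differed by -0.44 with median scaling and without normalization, against -0.45 with quantile normalization. For ACTG1, encoding a cytoskeletal actin, the brightest probe gave -0.17 (adjusted p = 0.206) and the second probe 0.40 (adjusted p = 0.00138), so that its probes disagreed in sign. ACTG1 was singled out after its values were seen.

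Genes next to the members were listed by position in the RefSeq table, as the 2 nearest protein-coding genes on each side. Of 22 such genes, 20 had a probe and 13 were tested. Of these 2 rose and 0 fell (15.4% called, against 8.97% of all genes), with a median difference of 0.08. Both that rose were listed for GSDMC, which was itself undetected, by order along the chromosome and not by distance. CYRIB, listed between GSDMC and ASAP1, was not called (0.11, limma, adjusted p = 0.514). Neither was its second probe (0.24, adjusted p = 0.138), and CYRIB was picked with its values known. MYC, a growth-promoting transcription factor, averaged 10.98 ± 0.21 in mutDFNA5 (SD, n = 6) and 10.48 ± 0.37 in wtDFNA5 (SD, n = 5), a difference of 0.50 (limma, adjusted p = 0.0184), and lost its call with normexp background correction (0.54, adjusted p = 0.0877). ASAP1, a regulator of ARF GTPases, averaged 10.22 ± 0.09 in mutDFNA5 (SD, n = 6) and 9.93 ± 0.16 in wtDFNA5 (SD, n = 5), a difference of 0.30 (adjusted p = 0.0266), and its second probe rose by 0.29 (adjusted p = 0.0353).

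ASAP1 lost its call without mutDFNA5 replicate 2, wtDFNA5 replicate 2 or wtDFNA5 replicate 5 (adjusted p = 0.0672, 0.0694 and 0.0838), and with normexp background correction (0.0594), no normalization (0.0637), no filter (0.0550) and the replicate block (0.0703). The following genes were picked for their position with their values known. PALS2 and OSBPL3, on either side of GSDME, were not called, with differences of 0.23 (adjusted p = 0.0768) and 0.15 (adjusted p = 0.385). ORMDL3, which lies between GSDMB and GSDMA, differed by -0.11 (adjusted p = 0.588). Beside PJVK, PRKRA and FKBP7 differed by 0.04 (adjusted p = 0.842) and -0.14 (adjusted p = 0.397).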

How the data were processed

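RNA from HEK293T cultures transfected with mutDFNA5 or wtDFNA5 was measured on Illumina HT12 BeadChips. The deposited files hold, per probe and array, a log2 signal that the authors summarised with beadarray before normalization, and a detection p-value that the authors computed against negative control probes. A deposited table of log2 values, quantile-normalized by the authors, served as an alternative and differed from the values used here by at most 0.0191. One wtDFNA5 sample was left out by the authors after quality control. No background correction is named in the study's methods for these HEK293T arrays, and unsubtracted background compresses fold changes. The submitters' notes name limma 3.24.4.

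Here the log2 signals of all 42000 probes were quantile-normalized, and probes with a detection p-value under 0.01 on at least 5 of 11 arrays were tested with limma 3.58.1 in R 4.3.3 (lmFit and eBayes, two-sided, Benjamini-Hochberg over the 14542 probes, threshold 0.05). All adjusted p-values come from this fit unless another setting is named. The number of arrays limits the precision. The limma step was tested on simulated data. Gene symbols came from a platform annotation of a later HT12 version, updated through RefSeq: 27916 probes had 1 symbol, 7 had several and 14077 were not listed. A gene was represented by its brightest tested probe. Named genes were all member probes, up to 4 called genes per list or the one with the smallest p, and the 3 best correlated genes per tested member. The members and lists were chosen with earlier results of these data known. Alternatives changed the background correction, the normalization, the detection filter, the prior variance, the probe for a gene, the pairing and the arrays included. Probe sequences and positions were not used here.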

Additional observations from a re-analysis of the deposited data

Results flagged for a closer look

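One value stood apart from its group. The ASAP1 probe ILMN_1690963 gave a log2 signal of 10.405 on mutDFNA5 replicate 2, while the other 5 mutDFNA5 arrays lay between 10.142 and 10.226. The gap was 0.681 of the range of the group, above the critical value of Dixon's test for 6 samples (0.625). Chance gives about 1 such value in 20 groups, and 42 groups were checked, 20 of them of gasdermin or pejvakin probes, in which none was found. Without this array ASAP1 differed by 0.26 between mutDFNA5 and wtDFNA5 (limma, adjusted p = 0.0672).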

How the results depend on the processing

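No gasdermin or pejvakin probe was called in the alternative settings in which it was tested (7 of the 10 probes entered a test only without a filter or, for some, with the looser detection limit), and the tested GSDMB probe kept its direction in all 19 settings that gave it a value. GSDME turned its sign in the fit with the replicate block, which leaves out mutDFNA5 replicate 6 (-0.02882, limma, adjusted p = 0.889), and gave the same value without that array and no block. It ranged from -0.03199 to 0.1062 when single arrays were left out. The tested GSDMA probe likewise gave -0.02577 in the block fit (adjusted p = 0.913) and without that array alone, and ranged from -0.032 to 0.06904 without single arrays. For GSDMB (ILMN_1666206) this range was 0.05 to 0.16. The filter for detection on all 11 arrays left GSDMA and GSDMB without a value.

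Of all tested probes, 1196 were called as reported, 448 with median scaling (376 higher and 72 lower), 300 without normalization between arrays (288 and 12) and 766 with the replicate block (377 and 389). Without a filter 400 were lower. Leaving out single arrays gave 863 to 1109 calls (425 to 548 higher and 438 to 572 lower). Among all list genes 9 were called as reported, 5 with normexp background correction, 5 with median scaling, 3 without normalization, 5 with the block and 6 to 11 without single arrays. Of the 9 genes themselves, 5, 4, 3 and 5 were still called in the first 4 of these settings. Without mutDFNA5 replicate 6 alone 863 probes were called, against 766 with the block on the same arrays. The median difference of all genes was 0.07 with median scaling and 0.16 without normalization, against -0.005 as reported. The cause was not tested.

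Same-numbered arrays of both groups did not deviate together (correlations of -0.038, -0.055, -0.058, 0.108 and 0.006), so the numbers were not taken as a pairing. Signals near background limit what can be read for 9 of the 10 probes, and the GSDME signal was not far above the lowest detected signals either.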
